A study of Mus musculus with 4 samples.

Results

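Oligodendrocytes were described here through the deposited share of the type Non_Neuronal_Oligo, called Oligo below, which is the fraction of a tissue spot assigned to oligodendrocytes. A spot was counted as holding Oligo when that share was above 0, and 4596 of 14809 spots (31.0%) did so. The spots came from 4 sagittal brain sections of C57 wild-type mice, 1 section per group, measured by spatial transcriptomics on spatially barcoded slides. The groups were a control mouse, a mouse that came through chronic social defeat stress resilient and one that was susceptible, all given saline, and a susceptible mouse given ketamine intraperitoneally at 10 mg/kg and examined 7 days later. The stress is repeated defeat by an aggressive mouse, and a social interaction test sorted the stressed mice. The series title places the study in myelin repair and the lasting effect of ketamine.

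Oligodendrocytes wrap axons in myelin, the lipid-rich sheath that speeds conduction, and they are dense in white matter tracts and sparser in grey matter. They arise from oligodendrocyte precursor cells (OPC), and they lie among astrocytes (Astro), which supply and buffer their surroundings, and microglia (Micro), the immune cells that live in brain tissue. A spot is a small region that can hold several cells or parts of cells, so a share describes a mixture and is no count of cells. Fewer oligodendrocytes and less RNA per oligodendrocyte cannot be told apart in such shares. Gene counts were not analysed here, so the Oligo label was not set against marker genes, and sequencing depth is unknown.

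With 1 section per group there were no replicates, and every difference below is between 2 sections and has no test. Intervals are exact Clopper-Pearson 95% intervals unless another kind is named, and stand for counting error alone. Spots that lie side by side share tissue and are not independent. Where 4 values follow each other without names, they run from the control to the resilient, the susceptible and the ketamine-treated section. The sections shared spot barcodes: 2503 of 4718 distinct barcodes were in all 4 sections. No 2 sections held an identical row at a shared barcode among the mixed Oligo spots.

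Oligo was held by 1577 of 3733 spots of the control section (42.2%, interval 40.7 to 43.8%). It was held by 1295 of 4156 spots of the resilient section (31.2%, 29.8 to 32.6%). The susceptible section had 884 of 3443 spots with Oligo (25.7%, 24.2 to 27.2%). The ketamine-treated susceptible section had 840 of 3477 (24.2%, 22.7 to 25.6%). The control section was highest, the resilient section second, and the intervals of the last 2 sections overlapped.

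The size of the share within those spots differed far less. The mean nonzero Oligo share was 52.7% of a spot in the control section (SD over spots 24.0), 51.4% in the resilient (SD 24.2), 54.1% in the susceptible (SD 24.6) and 52.4% in the ketamine-treated section (SD 24.7). The medians were 47.3%, 46.2%, 49.1% and 46.5%, in that order. The middle 50% of the shares ran from 33.9 to 64.8% in the control section and from 34.8 to 67.8% in the susceptible section. The smallest Oligo share was 13.7%, 12.3%, 14.5% and 13.7%. No type in any section had a kept share under 10.1%, so spots with a smaller Oligo share count here as without Oligo.

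**Figure D1:**
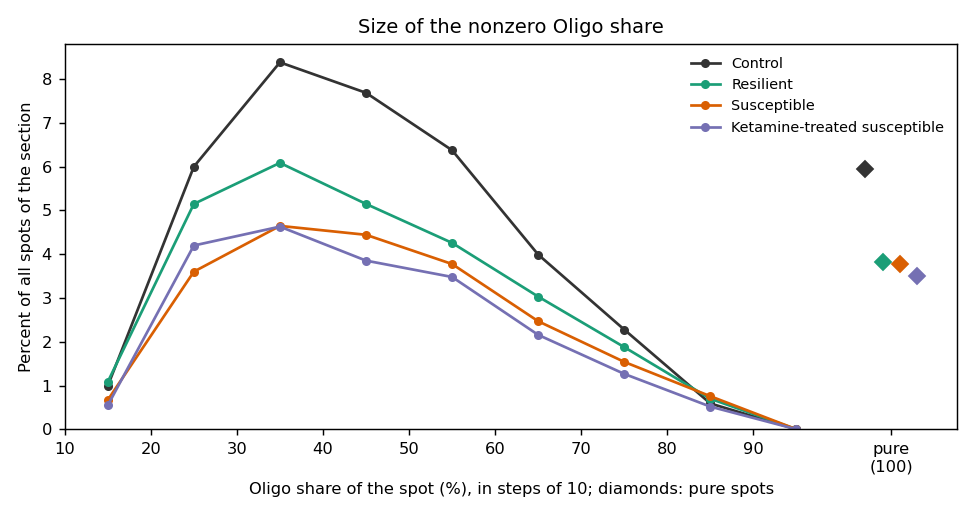
Percent of all spots of a section (y axis) against the Oligo share of the spot in steps of 10% (x axis), with spots wholly Oligo as diamonds at the right; 1 line per section. All 4 lines peak between 30 and 40% and reach 0 above 90%, and the control line is highest from 20% to 80%.

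Pure and mixed spots were separate. A pure spot, whose deposited share is 1, had no other type. There were 222 pure spots in the control section, or 14.1% of its Oligo-holding spots (12.4 to 15.9%). The resilient section had 159 (12.3%, 10.5 to 14.2%), the susceptible section 130 (14.7%, 12.4 to 17.2%) and the ketamine-treated section 122 (14.5%, 12.2 to 17.1%). These 4 intervals overlapped. Without cluster 7, a cluster rich in Oligo described below, the pure share was 12.5%, 9.29%, 9.57% and 9.47%, with the control highest. The largest share in a mixed spot was 85.8%, 86.9%, 85.6% and 83.9%, so no spot lay between that value and 100%. Pure spots carried 26.7%, 23.9%, 27.2% and 27.7% of the summed Oligo share of their sections. A single-type spot was more frequent among the other spots given a type, at 27.1%, 24.9%, 31.3% and 28.7%. Choosing spots by a given type favours spots with several types, so part of this contrast is built in. Set against single types held by at least 30 spots, the pure share of Oligo was among the higher ones. It ranked 7 of 33, 6 of 41, 9 of 32 and 10 of 31 types, counted from the highest.

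Mixed spots numbered 1355, 1136, 754 and 718. Oligo had the highest share of any type in 57.0%, 60.3%, 56.4% and 55.6% of them. Where it did not lead, Astro led most often, in 258 of 582 such spots of the control section, 172 of 451 of the resilient, 135 of 329 of the susceptible and 149 of 319 of the ketamine-treated section. An Oligo-holding spot held 2.46, 2.60, 2.44 and 2.50 types on average, against 2.18, 2.25, 2.05 and 2.12 in the other spots given a type. Here too the choice of spots by a given type favours spots with several types.

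The Oligo share of a mixed spot was a little above an equal split among its types. In spots of 2 types it averaged 56.1% in the control section (SD 13.0, 626 spots), 58.3% in the resilient (SD 13.7, 484 spots), 57.4% in the susceptible (SD 13.8, 368 spots) and 56.2% in the ketamine-treated section (SD 13.6, 320 spots). An equal split would be 50%. In spots of 3 types it averaged 38.3%, 38.7%, 38.9% and 37.9%, where an equal split would be 33.3%. In spots of 4 types it averaged 27.9%, 27.8%, 27.4% and 29.4%, where an equal split would be 25%. In each case the SD over spots was larger than the distance to the equal split.

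The susceptible section had 25.7% of spots with Oligo where the control section had 42.2%, a ratio of 0.608 (log-normal 95% interval 0.568 to 0.651, counting error only). The mean nonzero share differed by a ratio of 1.03 (0.988 to 1.06). Spots with less than 30% Oligo made up 6.99% of the control and 4.27% of the susceptible section. Spots with 30 to 50% made up 16.1% and 9.09%, those with 50 to 70% made up 10.4% and 6.24%, and pure spots made up 5.95% and 3.78%. Between 70% and a pure spot the sections were closest, at 2.87% and 2.29%. Within that range, spots with 80 to 90% Oligo were not fewer in the susceptible section, at 26 spots (0.755%) against 22 in the control (0.589%). Of 35 types held by at least 30 spots in either section, 3 (8.57%) were lower by at least 1.5-fold in the share of spots holding them. Oligo was 1 of the 3, 1 type had a lower ratio, and the median ratio over the 35 types was 0.945.

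In the share of spots with Oligo the resilient section lay between the control and the susceptible section, and in the nonzero share it was the lowest of the 3. Its share of Oligo-holding spots was 0.738 of that of the control (0.696 to 0.782), with a nonzero-share ratio of 0.975 (0.943 to 1.01). The holding ratio did not reach 1.5-fold, which 4 of 42 types (9.52%) did in the lower direction. The median ratio over the 42 types was 1.23, and 37 of them had a higher ratio than Oligo. The susceptible section had 0.824 times the holding share of the resilient section (0.766 to 0.886) and 1.05 times its nonzero share (1.01 to 1.09). Without cluster 7, described below, the nonzero-share ratio was 1.000. In that comparison 12 of 42 types (28.6%) were lower by at least 1.5-fold, Oligo was not among them, and the median ratio over the types was 0.839, close to that of Oligo. Pure spots were as frequent in both, at 3.83% of all spots in the resilient and 3.78% in the susceptible section.

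The ketamine-treated section was close to the susceptible section and as far from the control. Its holding share was 0.941 times that of the susceptible section (0.867 to 1.02), and its nonzero share was 0.970 times (0.928 to 1.01). Both intervals include 1, and neither shows that the sections were alike. By comparison, 4 of 33 types (12.1%) had a holding share lower by at least 1.5-fold, and the median ratio over the 33 types was 1.05. Against the control section the holding ratio was 0.572 (0.533 to 0.613) and the nonzero-share ratio 0.995 (0.957 to 1.03). In this comparison 3 of 35 types (8.57%) were lower by at least 1.5-fold, Oligo among them, with 1 type at a lower ratio. The median ratio over the 35 types was 1.00. The 3 comparisons against the control share 1 control section, so they are not separate measurements of it. In the size of the nonzero share, a type lower by at least 1.5-fold was seen only from control to resilient, for 2 of 32 types (6.25%), neither of them Oligo; the other 4 comparisons had 0 of 29 to 31 such types.

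The deposited clusters column divided the spots into numbered clusters, whose making and anatomy none of the sources used here gives. A number was taken to mean the same cluster in every section, which no source used here states. In cluster 7 nearly every spot held Oligo: 246 of 249 in the control section, 229 of 231 in the resilient, 236 of 241 in the susceptible and 238 of 239 in the ketamine-treated section. The mean share there was 71.0% (SD 20.1), 72.2% (SD 21.8), 73.6% (SD 21.4) and 70.7% (SD 21.9), the highest of any cluster with at least 20 Oligo-holding spots in each section. Both measures of cluster 7 were thus close in all 4 sections. It held 24.8% of the pure spots of the control section, 37.7% of those of the resilient, 52.3% of those of the susceptible and 53.3% of those of the ketamine-treated section.

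Cluster 1 had the most Oligo-holding spots in 3 sections and lay below cluster 7 by 5 spots in the ketamine-treated section. Of its spots 66.3% held Oligo in the control section (63.2 to 69.3%), 66.8% in the resilient (63.6 to 69.9%), 53.9% in the susceptible (49.8 to 57.9%) and 46.5% in the ketamine-treated section (42.1 to 51.0%). The control and resilient values were close and did not overlap with the other 2. The mean share in those spots ran only from 46.3% in the ketamine-treated to 49.1% in the control section.

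Clusters 3, 4 and 8 separated the control section from all 3 others in the percent of their spots that held Oligo. Cluster 3 held Oligo in 62.1% of its control spots (56.6 to 67.4%), 32.5% of its resilient spots (27.8 to 37.5%), 33.8% of its susceptible spots (28.3 to 39.7%) and 36.7% of its ketamine-treated spots (30.1 to 43.6%). Cluster 8 held it in 54.2% (42.9 to 65.2%), 15.6% (11.7 to 20.3%), 13.4% (8.78 to 19.3%) and 19.5% (13.1 to 27.5%). Those were 45 of 83, 46 of 294, 24 of 179 and 25 of 128 spots, so the cluster was larger outside the control section. In clusters 3 and 8 the control interval lay apart, and the other 3 overlapped. Cluster 4 held Oligo in 27.8% (17.9 to 39.6%), 2.82% (1.46 to 4.87%), 9.84% (6.47 to 14.2%) and 5.79% (3.47 to 8.99%). Those were 20 of 72, 12 of 426, 25 of 254 and 18 of 311 spots. In neither cluster 4 nor cluster 8 did the control section have the highest count of Oligo-holding spots. Cluster 4 was also larger outside the control section. Its control interval, on 72 spots, also lay apart, but the resilient and susceptible intervals did not overlap. Cluster 2, where Oligo was sparse, held it in 16.3%, 9.40%, 8.67% and 11.6% of spots, at a mean share of only 36.4%, 33.8%, 40.0% and 37.7%.

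Cluster 5 was an Oligo source of the control section above all. There 110 of 465 spots held Oligo, 43 of them pure, at a mean share of 68.8% (SD 26.7). In the resilient section the cluster had 2 spots and none held Oligo, in the susceptible section 2 of 239 did, and in the ketamine-treated section 20 of 293 did. The part of this cluster in the comparisons between sections was not tested.

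In the 13 clusters that had 20 spots or more in each of the 4 sections, the holding share was lower in the susceptible than in the control section in 12, and in 6 of them the intervals did not overlap. The resilient section was lower than the control in 11, with 4 not overlapping. The ketamine-treated section was lower than the control in 11, with 6 not overlapping. Between the ketamine-treated and susceptible sections 6 clusters were lower and none had intervals that did not overlap. The susceptible section was lower than the resilient in 8, with 2 not overlapping, and in cluster 4 it was higher without overlap.

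**Figure D2:**
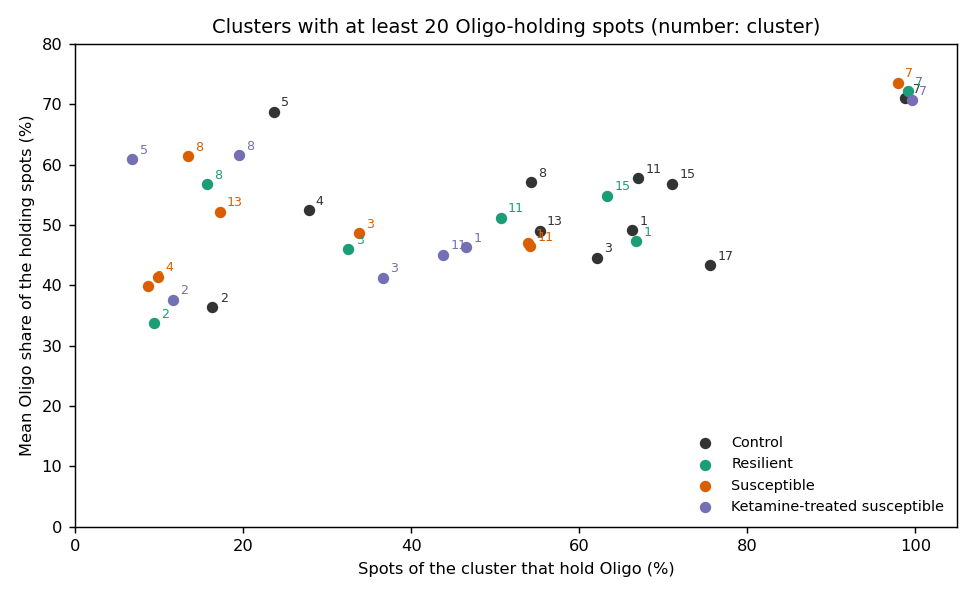
Mean Oligo share of the holding spots (y axis, percent) against the percent of a cluster's spots that hold Oligo (x axis), for clusters with at least 20 Oligo-holding spots; each point is 1 cluster of 1 section and is numbered by cluster. Cluster 7 sits at the upper right in all 4 sections, and clusters 3 and 8 of the control section lie to the right of the same clusters of the other sections.

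Mixed spots paired Oligo with most other types: 59, 58, 57 and 56 were found beside it, where the 67 types include Oligo itself. Neurons of some type were in 69.2%, 69.3%, 72.5% and 70.9% of mixed spots. The remaining 30.8%, 30.7%, 27.5% and 29.1% held only glial or vascular types beside Oligo. Neurons were still less frequent than in spots without Oligo. They were in 59.5%, 60.8%, 61.9% and 60.6% of all Oligo-holding spots, against 85.0%, 84.0%, 84.4% and 82.8% of the other spots given a type. Pure Oligo spots hold no partner, and a typed spot without Oligo must hold another type, so part of this contrast is built in. The neuron rates of mixed spots alone were also below those of the other spots. Every partner rate over all Oligo-holding spots, and every rate ratio built on it, is lowered by pure spots in the same way. The exact sets of partners were many, at 315, 327, 254 and 255, and most were seen once, at 208, 230, 178 and 182.

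Astro was the most frequent partner in every section. It was in 793 mixed spots of the control section (58.5%, 55.8 to 61.2%), 601 of the resilient (52.9%, 49.9 to 55.8%), 361 of the susceptible (47.9%, 44.3 to 51.5%) and 398 of the ketamine-treated section (55.4%, 51.7 to 59.1%). The susceptible interval lay below those of the control and the ketamine-treated section. Over all Oligo-holding spots, the Astro rate was 1.04, 1.06, 0.916 and 1.01 times that in other spots given a type. Pure Oligo spots lower these ratios, because they hold no partner. The rates in mixed spots stood against 48.4%, 43.9%, 44.6% and 47.1% of the other spots. They were higher in each section, though the susceptible interval included the value of its other spots. Astro as the only partner was the leading set in each section, with 297, 210, 138 and 138 spots. In these 2-type spots Oligo took 54.3% (SD 11.2), 55.7% (SD 12.0), 52.9% (SD 12.6) and 52.6% (SD 11.8).

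L2_IT_RSPv, by its name a layer 2 intratelencephalic neuron of the ventral retrosplenial cortex, came second. It was in 21.9%, 21.3%, 23.2% and 21.4% of mixed spots, a spread smaller than the counting intervals. Its rate in Oligo-holding spots was 1.86, 2.81, 1.76 and 1.55 times that in other spots. When the other spots were reweighted to the clusters of the Oligo-holding spots, the ratio was 0.939, 1.03, 0.797 and 0.914. This reweighting also leaves out clusters with fewer than 10 spots without Oligo, cluster 7 among them. L2_IT_RSPv alone and Astro with L2_IT_RSPv were the other two leading sets of all 4 sections.

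Projection neurons differed among themselves in how often they lay beside Oligo. Of the named types, L5_PT_RSP_ACA, L4_5_IT_TPE_ENT, L2_IT_RSP_ACA and L6_CT_CTX were less frequent there in all 4 sections. L5_PT_RSP_ACA, named for a layer 5 pyramidal tract neuron of the retrosplenial and anterior cingulate areas, had rate ratios of 0.323, 0.559, 0.299 and 0.264. L4_5_IT_TPE_ENT had 0.241, 0.303, 0.321 and 0.394, and L2_IT_RSP_ACA 0.268, 0.292, 0.226 and 0.316. The first 2 stayed below 1 after reweighting, at 0.556, 0.629, 0.526 and 0.475 for L5_PT_RSP_ACA and 0.552, 0.615, 0.514 and 0.635 for L4_5_IT_TPE_ENT. L2_IT_RSP_ACA came to 0.750, 1.03, 0.754 and 0.872. L6_CT_CTX was also below 1 as deposited, at 0.457, 0.307, 0.278 and 0.310, but after reweighting it was 1.65, 1.34, 0.927 and 0.711. L6b_CTX was at 1.56, 1.23, 0.858 and 1.05, with an interval that excluded 1 in the control section alone, and at 4.16, 3.61, 2.52 and 2.00 after reweighting. NP_SUB was at 0.870, 1.09, 1.59 and 1.34, and at 0.580, 0.652, 1.09 and 0.871 after reweighting.

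All deep-layer types together were in 17.3%, 25.4%, 15.4% and 18.5% of mixed spots. Over all Oligo-holding spots the group was at 14.9%, 22.2%, 13.1% and 15.8%, against 38.5%, 43.8%, 34.7% and 35.6% of the other spots given a type. Hippocampal neurons were rare partners, at 1.48%, 1.23%, 2.79% and 0.975% of mixed spots. They were in 1.27%, 1.08%, 2.38% and 0.833% of Oligo-holding and 7.03%, 6.29%, 4.93% and 3.70% of other spots.

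Inhibitory neurons were in 25.6%, 26.8%, 25.9% and 20.6% of mixed spots. They were in 22.0%, 23.6%, 22.1% and 17.6% of Oligo-holding spots and 21.3%, 26.7%, 24.5% and 22.2% of other spots. Pvalb, the fast-spiking parvalbumin interneuron, was in 13.8% (12.0 to 15.8%), 16.6% (14.5 to 18.9%), 8.36% (6.48 to 10.6%) and 7.24% (5.46 to 9.39%). The control and resilient sections thus stood above the other 2 without overlap. Its rate ratio against other spots was 1.09, 1.67, 0.803 and 0.865, and after reweighting 0.620, 0.698, 0.728 and 0.791, below 1 in each section. As part of the share that Oligo did not take, its ratio was above 1 in each section, at 1.80, 2.51, 1.42 and 1.48. Pvalb was a partner of small Oligo shares: in the control section it was in 31.0% of spots with less than 30% Oligo and in 4.13% of those with 50 to 70%. The resilient values were 39.0% and 3.30%, the susceptible 19.7% and 2.33%, and the ketamine-treated 17.6% and 2.55%. Pvalb was not alone in this. Between the same bands L5_PT_RSP_ACA went from 17.6% to 3.10% in the control, 37.8% to 6.60% in the resilient and 23.8% to 4.19% in the susceptible section. Spots with little Oligo have room for more types, so part of such a gradient is built into the shares.

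**Figure D3:**
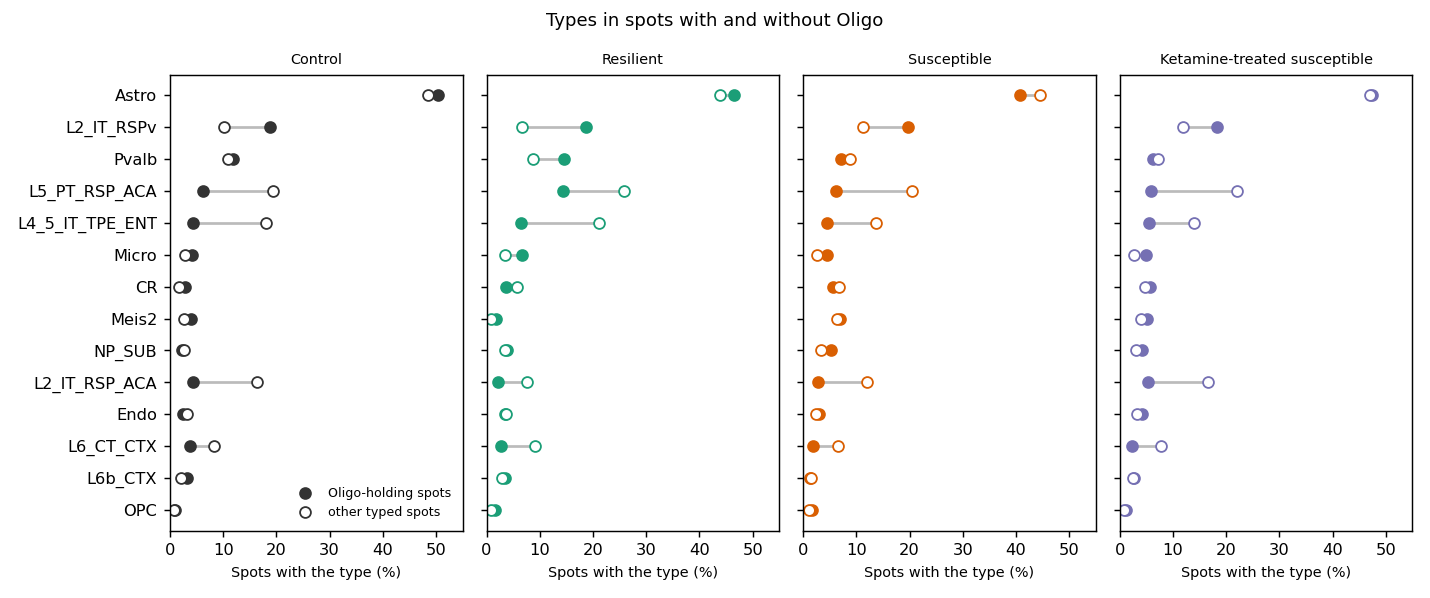
Percent of spots that hold a type (x axis), for 14 named partner types (y axis), in Oligo-holding spots (filled) and in the other spots given a type (open), 1 panel per section. L2_IT_RSPv is further right in Oligo-holding spots in all 4 panels, and L5_PT_RSP_ACA, L4_5_IT_TPE_ENT, L2_IT_RSP_ACA and L6_CT_CTX are further left.

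Microglia were infrequent beside Oligo, and Oligo had the larger share of the pair in 81.8%, 82.6%, 77.5% and 83.3% of the spots they shared, at a mean Oligo share of 46.2%, 52.8%, 45.3% and 48.0%. Micro was in 66 mixed spots of the control section (4.87%, 3.79 to 6.16%), 86 of the resilient (7.57%, 6.10 to 9.27%), 40 of the susceptible (5.31%) and 42 of the ketamine-treated section (5.85%). Its rate ratio against other spots was 1.51 (log-normal interval 1.06 to 2.14), 1.91 (1.44 to 2.54), 1.79 (1.21 to 2.65) and 1.82 (1.25 to 2.65). After reweighting it was 1.05, 2.01, 1.05 and 1.33. The reweighted values leave out cluster 7, which had 30.3%, 48.8%, 45.0% and 47.6% of the spots with both Oligo and Micro. In spots of Oligo and Micro alone Oligo averaged 67.2% (SD 12.8, 17 spots), 68.7% (SD 14.1, 36 spots), 67.4% (SD 13.4, 10 spots) and 69.1% (SD 10.3, 11 spots). That was above the 52.6 to 55.7% it averaged beside Astro alone. Micro as the only partner was the fourth set of the resilient section.

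OPC, from which oligodendrocytes arise, was with Oligo in 15, 21, 15 and 10 spots, or 1.11%, 1.85%, 1.99% and 1.39% of mixed spots. Its rate ratio was above 1 in all 4 sections, at 1.37, 1.87, 1.46 and 1.36, and the interval excluded 1 in the resilient section alone (1.04 to 3.34). Endo, the endothelial cell lining vessels, was in 2.88%, 3.96%, 3.58% and 4.87% of mixed spots, with ratios of 0.769, 0.971, 1.27 and 1.31 whose intervals all included 1. Vascular types together were in 8.63%, 10.8%, 10.3% and 12.3% of mixed spots. They were in 7.42%, 9.50%, 8.82% and 10.5% of Oligo-holding spots and 8.12%, 8.57%, 7.38% and 8.63% of other spots given a type.

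The share that Oligo took differed by partner in spots of 2 types. Beside Meis2 it was high, at 65.7% (SD 9.71, 19 spots) in the control, 72.9% (SD 13.2, 12 spots) in the susceptible and 69.6% (SD 8.38, 13 spots) in the ketamine-treated section. Beside L6_CT_CTX, a corticothalamic neuron of layer 6, it was low, at 41.3% (SD 14.7, 21 spots) in the control, 40.8% (SD 14.3, 11 spots) in the resilient and 40.3% (SD 13.2, 11 spots) in the ketamine-treated section. The remaining sections had fewer than 10 such spots. Beside L6b_CTX the mean went from 58.5% in the control to 44.2% in the ketamine-treated section, on 17 and 10 spots.

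**Figure D4:**
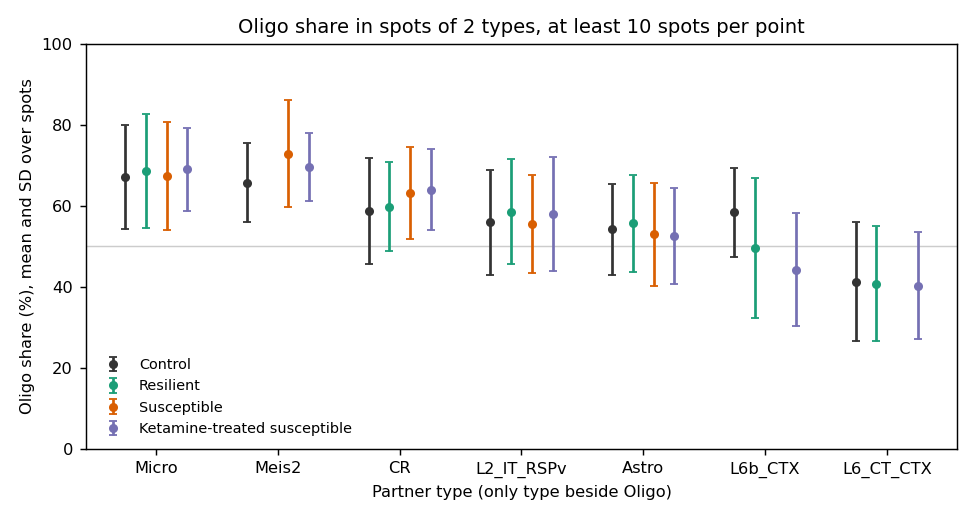
Oligo share (y axis, percent, mean and SD over spots) in spots that hold Oligo and 1 other type, by that type (x axis) and section; points rest on at least 10 spots and the grey line marks an equal split. Micro and Meis2 points lie above 65%, Astro points between 52 and 56%, and L6_CT_CTX points near 40%.

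Partners differed between sections as follows, over partners with at least 20 mixed spots in either section. From control to susceptible, 5 of 21 partners (23.8%) were lower by at least 1.5-fold and 4 (19%) higher. The lower ones were Pvalb, L2_IT_RSP_ACA, L3_RSP_ACA, L6_CT_CTX and L6b_CTX, of which Pvalb and L6b_CTX had intervals that did not overlap (L6b_CTX 3.76% and 1.46%). The higher ones were Meis2 (4.58% and 8.09%), CR (3.39% and 6.50%), NP_SUB (2.66% and 6.10%) and Pvalb_Vipr2 (1.33% and 3.18%), the last with overlap. Meis2 and CR were also more frequent in the susceptible section in spots without Oligo, by ratios of 2.31 and 3.85, and NP_SUB by 1.25. There Pvalb and L6b_CTX were also lower, by ratios of 0.815 and 0.698.

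From control to resilient, 3 of 22 partners (13.6%) were lower by at least 1.5-fold: Meis2, L2_IT_RSP_ACA and L3_RSP_ACA, all without overlap. In spots without Oligo the same types were lower too, by ratios of 0.306, 0.469 and 0.389, where the ratios beside Oligo were 0.462, 0.501 and 0.275. The 6 higher ones (27.3%) were L5_PT_RSP_ACA, NP_SUB, Micro, OPC, PVM and SMC, and only L5_PT_RSP_ACA did not overlap, at 7.31% and 16.5%. In spots without Oligo that type was at 19.4% and 25.8%, a ratio of 1.33 where the ratio beside Oligo was 2.25. From resilient to susceptible, 4 of 22 (18.2%) were lower (Pvalb, L5_PT_RSP_ACA, L6b_CTX and PVM) and 4 (18.2%) higher (Meis2, Pvalb_Vipr2, Sst_Chodl and CR). Of these, PVM, Pvalb_Vipr2, Sst_Chodl and CR had overlapping intervals. Sst_Chodl was at 2.02% and 3.18% beside Oligo, but went the other way in spots without it, at 11.1% and 6.18%. Pvalb was at 16.6% and 8.36% beside Oligo, and at 8.72% and 8.87% in spots without it. Meis2 was at 2.11% and 8.09% beside Oligo, and at 0.832% and 6.30% without it, and L6b_CTX at 3.96% and 1.46% beside Oligo and 2.82% and 1.45% without it.

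The ketamine-treated and susceptible sections had the fewest such differences: 1 of 18 partners (5.56%) was lower (Pvalb_Vipr2) and 2 (11.1%) were higher (L2_IT_RSP_ACA and L6b_CTX), all with overlapping intervals. From control to ketamine-treated, 3 of 20 (15%) were lower (Pvalb, L3_RSP_ACA and L6_CT_CTX) and 4 (20%) higher (CR, NP_SUB, Endo and PVM). Of these, Pvalb and CR did not overlap, and in spots without Oligo their ratios were 0.657 and 2.73.

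Partners also depended on the cluster, and the cases that follow were chosen after the values of all named partners in 6 clusters had been seen. In cluster 7 Micro was in 42 of 169 mixed spots of the resilient section (24.9%, 18.5 to 32.1%). It was in 20 of 191 of the control (10.5%, 6.51 to 15.7%), 18 of 168 of the susceptible (10.7%, 6.47 to 16.4%) and 20 of 173 of the ketamine-treated section (11.6%, 7.21 to 17.3%). The resilient interval did not overlap with the other 3. Counting only Micro shares of at least 20% of a spot gave 15.4% in the resilient section and 6.28%, 7.14% and 6.36% in the others, with overlapping intervals. In cluster 1 Micro was at 4.25% in the resilient and 3.65% in the control section.

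In cluster 2 a frequent partner was L6b_CTX, the neuron of the deepest cortical layer, next to the white matter. It was in 27.2% of mixed Oligo spots and 6.08% of spots without Oligo in the control section, and in 35.7% and 9.66% in the resilient section. The susceptible values were 12.9% and 4.55%, and the ketamine-treated 18.7% and 9.61%. The rate was higher beside Oligo in all 4 sections, and the intervals were apart in the control and resilient sections only. L6_CT_CTX was in 47.4%, 42.9%, 19.4% and 20.0% of mixed spots of cluster 2, against 25.5%, 32.1%, 21.4% and 29.3% of its spots without Oligo.

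In cluster 1 L5_PT_RSP_ACA was in 22.6% of the mixed spots of the resilient section and in 8.76%, 6.71% and 7.66% of those of the control, susceptible and ketamine-treated sections. Pvalb was in 28.5% there and in 20.8%, 11.7% and 13.9%. Both were still more frequent in the spots of that cluster without Oligo, at 32.8% and 36.9% in the resilient section.

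**Figure D5:**
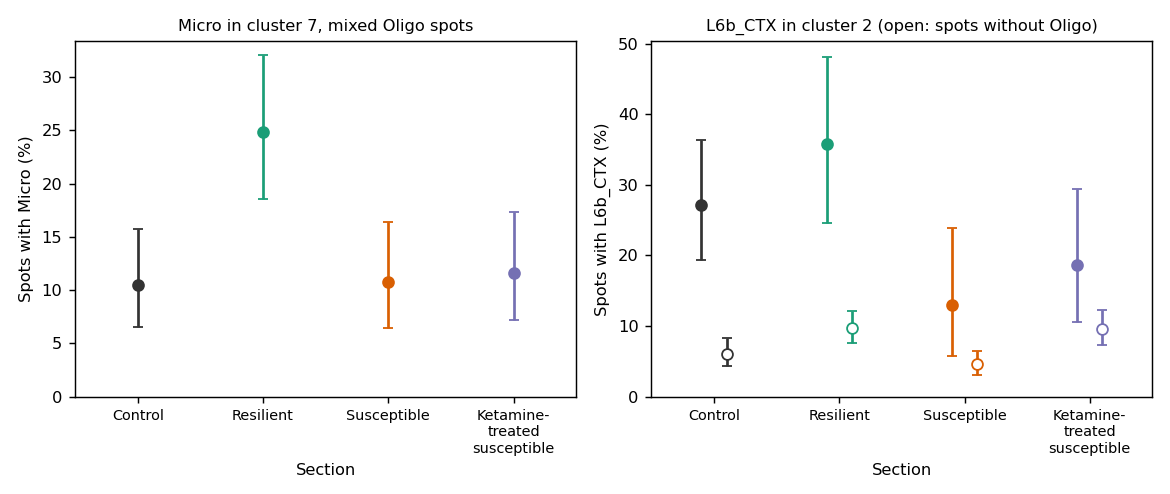
Percent of spots with Micro among mixed Oligo spots of cluster 7 (left, y axis) and with L6b_CTX among spots of cluster 2 (right, y axis; filled mixed Oligo spots, open spots without Oligo), by section (x axis), with exact 95% intervals. The resilient section is highest in both panels, and L6b_CTX is more frequent beside Oligo in all 4 sections.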

How the data were processed

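The tables deposited by the authors, 1 per section, have a row per spot with its cluster and 1 fraction for every one of 67 cell types and for unknown; the fractions of a row sum to 1. The genome build named in the submitters' processing notes was mm10. Aligner, clustering and deconvolution method: not given in the sources used here. Spots were pure at a share of 1 and otherwise mixed. Partner rates, 95% Clopper-Pearson intervals, log-normal intervals of ratios and cluster values were computed with Python 3.11.15, pandas 2.3.3 and SciPy 1.17.1. The calculation of reweighted partner rates was run on simulated spots, far more than in a section, with partner types drawn independently. A smaller simulation had missed the set tolerance for a rare partner. The simulation does not cover bias or precision at the size of these sections. With 1 section per group no test was made. Named partners were the 10 in most mixed spots of each section, with OPC, Micro and Endo, and, between sections, those with at least 20 mixed spots and a 1.5-fold difference. The members, lists and rules were chosen with earlier results of these data known. Alternatives were another minimum share (0.2), unknown spots left out, equal cluster weights, cluster 7 left out, pure at 80%, other spots reweighted by cluster, and the partner's part of the share that Oligo did not take. A t-SNE table was not used here.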

Additional observations from a re-analysis of the deposited data

How the results depend on the processing

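The holding ratios kept their direction under every alternative run. With equal cluster weights they were 0.702 (susceptible against control), 0.903 (susceptible against resilient) and 0.679 (ketamine-treated against control), and without cluster 7 they were 0.530, 0.745 and 0.487. The nonzero-share ratios without cluster 7 were 0.952 (susceptible against control), 1.000 (susceptible against resilient, so that difference was gone) and 0.917 (ketamine-treated against control), and the last was 0.956 with equal cluster weights. The pure share without cluster 7 was 12.5% (control), 9.29% (resilient), 9.57% (susceptible) and 9.47% (ketamine-treated), and with pure at 80% it was 14.5% (resilient) and 17.6% (susceptible). Astro among mixed spots was 47.5% (resilient) and 51.0% (ketamine-treated) at a partner share of at least 0.2, and 51.7% in the susceptible section without cluster 7.

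The ratios of partner rates depended most on the setting. Reweighted by cluster, Astro was 0.841 (control), 0.841 (resilient) and 0.920 (ketamine-treated). L2_IT_RSPv crossed 1 in the control (0.939), susceptible (0.797) and ketamine-treated section (0.914) and was 1.03 in the resilient. Pvalb crossed 1 in the resilient section (0.698) and was 0.620 in the control. Micro was 1.05 in the control and 1.05 in the susceptible section. L4_5_IT_TPE_ENT was 0.552, 0.615, 0.514 and 0.635, in the order of the report, and L5_PT_RSP_ACA was 0.556 (control), 0.526 (susceptible) and 0.475 (ketamine-treated). Taken as part of the share left by Oligo, Astro was 1.51, 1.35, 1.32 and 1.41; L2_IT_RSPv 2.52, 3.68, 2.43 and 1.93; Pvalb 1.80, 2.51, 1.42 and 1.48; L4_5_IT_TPE_ENT 0.465, 0.509, 0.584 and 0.747; L5_PT_RSP_ACA 0.473, 0.770, 0.485 and 0.421. Micro was 2.36 (control), 2.94 (resilient) and 2.76 (susceptible). The cause of these shifts was not tested. The share cutoff for Micro and L6b_CTX within clusters was added after seeing the data.

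No paired analysis was possible because each group had 1 section. The number of spots limits precision, depth is unknown, and no interval covers the spread between mice, sections or cutting planes.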
